A study of Bos taurus with 9 samples.

Results

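Of 9 bovine granulosa arrays, 3 carried day RNA rich in macrophage transcripts, and these are described here against the other 6. The arrays were chosen from their own signals. For each array the median log2 ratio of day RNA to 120-day RNA was taken over 12 macrophage genes (CD68, CD14, CSF1R, CD163, AIF1, C1QA, C1QB, C1QC, TYROBP, FCER1G, MSR1 and CTSS), each read from its brightest probe, and arrays with a median above 1 were set apart. The macrophage-rich arrays were 30 days replicate 2 (median 2.48), 30 days replicate 3 (2.24) and 90 days replicate 1 (2.21), an order kept for every group of 3 values given for them. The other arrays were 30 days replicate 1 (-1.23), 60 days replicates 1, 2 and 3 (-0.89, 0.04 and -0.42) and 90 days replicates 2 and 3 (0.70 and 0.40). The array just inside the limit was thus 90 days replicate 1 at 2.21, and the one just outside was 90 days replicate 2 at 0.70.

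The study followed granulosa cells of dominant, preovulatory follicles in Holstein-Friesian cows after calving, and its labels set each time point against day 120. On every array Cy5 held RNA of 30, 60 or 90 days after calving and Cy3 held RNA of 120 days after calving, with 3 arrays per day and no array with exchanged dyes. All cows had received prostaglandin F2alpha 42 hours before ovum pick-up, a needle aspiration of follicles. Cells were spun out of follicular fluid and washed, with no sorting step in the protocols used here. Their RNA was extracted with the PicoPure kit, amplified linearly with the RiboAmp HSPlus kit, labelled chemically with the Universal Linkage System and hybridised to a bovine oligonucleotide array on Agilent slides. The labels call the replicates of a day biological and do not say how many cows each one came from. In this bulk RNA, fewer cells of a type and less RNA per cell of that type cannot be told apart.

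Granulosa cells line the follicle, turn thecal androgen into oestradiol through aromatase, and secrete inhibins, activins and follistatin, which act on the pituitary and locally on the follicle. Macrophages are phagocytes that carry Fc and scavenger receptors, break down engulfed material in lysosomes, present antigen and release cytokines. They live in the theca and stroma outside the follicle's basement membrane, and enter the follicle wall and the forming corpus luteum around ovulation, together with other leukocytes.

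Detection on the 3 arrays lay within the range of the others in both channels. Cy5 exceeded the negative control spots for 73.4% to 75.0% of probes on the macrophage-rich arrays, against 29.8% to 82.3% on the others, where 30 days replicate 1 was the lowest. Cy3 exceeded them for 74.4% to 80.3% of probes on the macrophage-rich arrays, against 20.9% to 84.2% on the others. The lowest in Cy3 were 60 days replicate 3 at 20.9% and 30 days replicate 1 at 53.3%. By the correlation of their Cy3 signals the 9 arrays fell into 3 sets of 3, each set with 1 array per day, at r of 0.966 to 0.989 within sets and 0.879 to 0.955 between sets. These sets are called A, B and C. Set B held 30 days replicate 2, 60 days replicate 2 and 90 days replicate 1, set C held the third replicate of each day, and set A held no macrophage-rich array. In the authors' deposited table of processed values, only 1 of 9 columns correlated best with the array of its own name. Some correlated best with an array of another day. The day and replicate given for each array here therefore rest on the naming of the scanner files. The choice of the 3 arrays does not use the day. Over all probes kept, the ratios of the 3 pairs of macrophage-rich arrays correlated at 0.455 to 0.657, and those of the 18 pairs with 1 array of each kind at -0.03 to 0.43. The 15 pairs of other arrays ranged from -0.11 to 0.75, so they are not 1 uniform group. These correlations describe arrays whose 120-day signals are alike within a set, and no test was made of them. The sets rest on Cy3 signals after the loess step, which uses both channels, with their number fixed at 3. Whether the arrays of a set shared 120-day RNA was not tested.

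Because the arrays were chosen from these ratios, no p-value is given for the split. A gene was called when no value of the 3 arrays overlapped the values of the 6, and the means differed by at least 1 on the log2 scale. Of 14281 genes measured, 643 were called higher in the macrophage-rich arrays (4.50% of genes) and 364 were called lower (2.55%). The 12 marker genes had been used to choose the arrays, 9 of them were called, and 634 of the higher genes lay outside them. The difference reached 2 on the log2 scale, or 4-fold, for 278 of the higher and 128 of the lower genes. The median difference over all genes was 0.01.

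**Figure D1:**
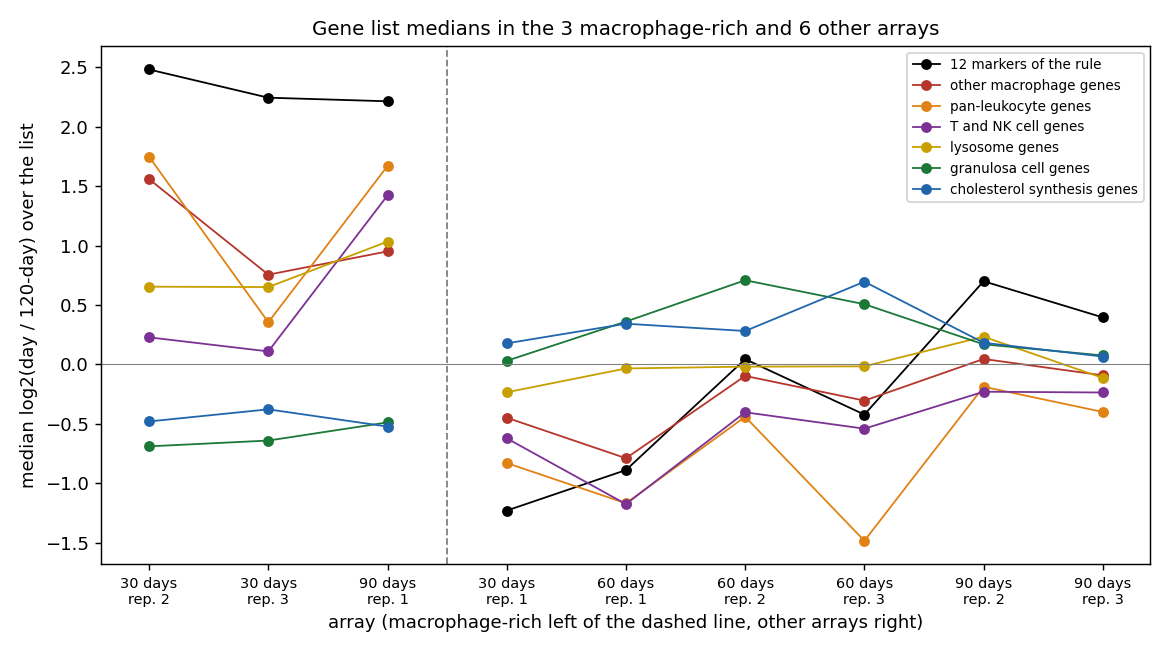
Each point is the median log2 ratio of day RNA to 120-day RNA (vertical axis) over the genes of a list on 1 array (horizontal axis), with the 3 macrophage-rich arrays left of the dashed line and the 6 other arrays right of it. The black points are the 12 genes that chose the arrays. Granulosa and cholesterol synthesis genes lay below 0 on the 3 macrophage-rich arrays and above 0 on the other 6.

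Outside the 12 markers, the gene with the widest gap was SPP1, which encodes osteopontin, a secreted phosphoprotein that macrophages make in quantity. Its log2 ratio was 5.13, 3.47 and 5.95 in the macrophage-rich arrays, against -3.25 to -1.28 in the others (median -2.57). That is a mean of 4.85 ± 1.26 (SD, n = 3) against -2.47 ± 0.79 (SD, n = 6), a difference of 7.32. The groups lay far apart, and the lowest macrophage-rich array was still above 3. Before normalisation the SPP1 spot read 40271, 40807 and 40790 in Cy5 on the macrophage-rich arrays, where 1 of the 3 spots was saturated. On the other arrays it read 99.6 to 2018 in Cy5. In Cy3 the spot read 1690, 3792 and 737 on the macrophage-rich arrays, against 2290 to 7229 on the others. The difference of 7.32 thus holds a Cy3 part as well. Cy5 was nearly equal on the 3 arrays, at or close to the reading of the saturated spot, so the Cy5 part may be too small. The ratios of these arrays ran in the reverse order of Cy3. A second SPP1 probe differed by 4.28.

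The other genes with the highest differences fell into macrophage and general leukocyte genes, with some of neither kind. GPNMB, a membrane glycoprotein of phagocytic macrophages, had log2 ratios of 2.85, 3.12 and 3.49 in the macrophage-rich arrays, against -3.99 to 0.87 in the others. SPI1, the transcription factor PU.1 that directs myeloid development, had 3.63, 2.60 and 3.03 there, against -2.54 to 0.74. The means of SPI1 were 3.09 ± 0.52 (SD, n = 3) and -1.21 ± 1.33 (SD, n = 6). In neither gene did the groups overlap, while the 6 other arrays covered several log2 units among themselves. CHI3L1, a secreted chitinase-like protein, had 3.78, 3.19 and 3.60 in the macrophage-rich arrays, against -3.41 to 2.06 in the others. DAB2, a clathrin adaptor for endocytosis, had 3.58, 4.39 and 4.28, against -3.51 to 0.21. The 4 probes of DAB2 had differences from 0.56 to 5.54, so the size of the DAB2 value rests on its brightest probe.

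Genes shared by leukocytes of many kinds stood in the same range. RAC2, a GTPase of blood cells, had log2 ratios of 1.26, 1.52 and 1.75 in the macrophage-rich arrays, against -4.56 to -0.55 in the others. LAPTM5, a lysosomal membrane protein of leukocytes, differed by 4.29, and ICAM3, an adhesion molecule of resting leukocytes, by 4.19. INPP5D, the phosphatase SHIP1, differed by 4.27, with its 3 probes between -0.07 and 4.27. CTSW, a cathepsin of cytotoxic lymphocytes, had 1.13, 2.75 and 2.41 in the macrophage-rich arrays, against -3.91 to -0.64 in the others. NRN1 and RARRES1, also among the 12 highest, are not known chiefly from leukocytes. NRN1, a surface protein known for neurite outgrowth, had 3.38, 4.98 and 4.81 in the macrophage-rich arrays, against -2.28 to 1.34 in the others. RARRES1, a membrane protein induced by retinoids, had 1.98, 3.80 and 3.49, against -3.92 to -0.51.

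**Figure D2:**
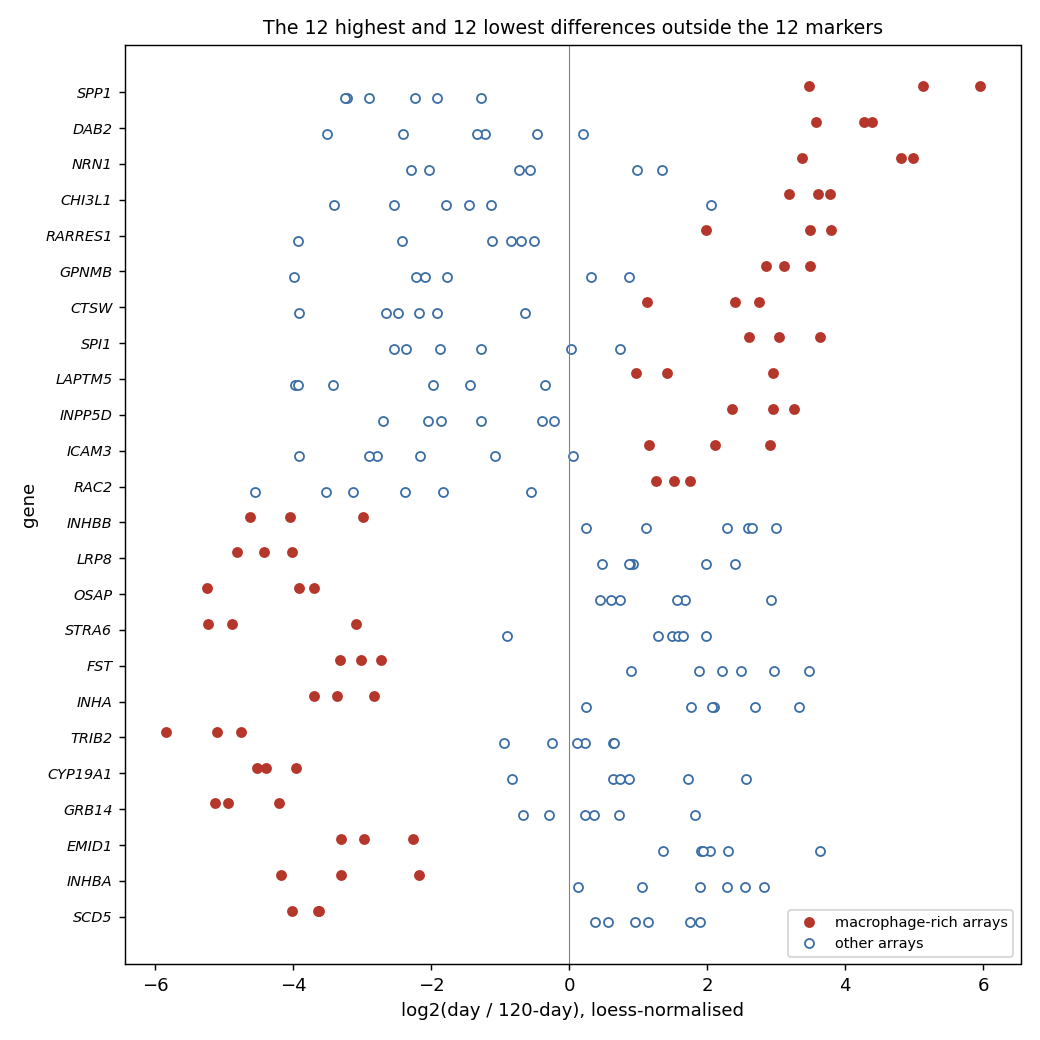
Log2 ratio of day RNA to 120-day RNA (horizontal axis) of the 12 highest and 12 lowest differences outside the 12 marker genes, 1 point per array, with filled points for the 3 macrophage-rich arrays and open points for the 6 others. In none of the 24 genes do the groups overlap, which the call required; SPP1 has the widest gap.

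Of 40 measured macrophage and monocyte genes that had not been used to choose the arrays, 20 were called higher and 0 lower, and 39 had a difference above 0. The list's median difference was 1.51, and 38 of its genes exceeded the control spots on all 3 macrophage-rich arrays. On the macrophage-rich arrays its median log2 ratio was 1.56, 0.76 and 0.95, against -0.79 to 0.05 on the others. STAB1, a scavenger receptor of tissue macrophages, had 3.82, 5.12 and 4.89 in the macrophage-rich arrays, against -0.71 to 2.18 in the others. VSIG4, a complement receptor, differed by 3.80, while the receptors C3AR1 and C5AR1, for complement fragments, had differences of 0.94 and 0.36 and were not called. Among Fc receptors, which bind antibody, FCGR1A differed by 3.76 and FCGR2 by 3.85. Of the pattern receptors that sense microbes, TLR2 differed by 3.35 and TLR4 by 1.63. TREM2, a lipid-sensing receptor, had 2.11, 2.11 and 1.34 in the macrophage-rich arrays, against -0.47 to -0.12 in the others.

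Not every macrophage gene followed. LYZ, lysozyme, was called at a difference of 3.62, of which Cy5 gave 1.96 and Cy3 -1.66, and its values were 3.48, -0.73 and -0.87, against -5.90 to -0.89, so only a narrow gap separated 2 of the 3 arrays from the highest other. SLC11A1, a metal transporter of phagosomes, read 2.39, 3.29 and -0.00 in the macrophage-rich arrays, against -1.94 to 1.86 in the others, and was not called because of the 90-day array. CX3CR1 and CCR2, chemokine receptors of monocytes, had differences of -0.18 and 0.07, although a second CX3CR1 probe differed by 2.28. ITGAM, an integrin of monocytes and granulocytes, had a difference of 0.71 and was not called. It exceeded the control spots on 0 of the 6 other arrays, and its Cy5 signal was at least 1.67-fold higher in the macrophage-rich ones. Second probes of VSIG4, FCGR2 and TLR4 differed by 0.86, 0.44 and 0.01, less than the brightest ones.

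Of 32 pan-leukocyte genes measured, 17 were called higher and 0 lower, with a median difference of 2.40. The list's median log2 ratio was 1.75, 0.36 and 1.67 on the macrophage-rich arrays, against -1.48 to -0.19 on the others, so 30 days replicate 3 was the lowest of the 3. LCP2, an adaptor of T cell and mast cell receptor signalling, had 2.01, 0.94 and 2.32 in the macrophage-rich arrays, against -3.89 to -1.16 in the others. PTPRC, which encodes the leukocyte antigen CD45, had 2.48, -0.03 and 1.45, against -0.80 to 1.05, and was not called. SRGN, a proteoglycan core protein of blood cell granules, had a difference of -0.00.

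T and NK cell genes were also high. Of 35 measured, 16 were called higher and 0 lower, with a median difference of 1.12. CD3E, a chain of the T cell receptor complex, had log2 ratios of 0.23, 0.58 and 2.07 in the macrophage-rich arrays, against -3.62 to -0.74 in the others. LCK, the kinase that starts T cell receptor signalling, differed by 3.41, and GIMAP4 and GIMAP7, GTPases of lymphocytes, by 4.03 and 3.58. CD8B, a chain of the cytotoxic T cell co-receptor, read -0.43, -0.92 and 2.05 in the macrophage-rich arrays, against -3.30 to -1.37 in the others, with a second probe at a difference of 0.38. The list median was highest on 90 days replicate 1, at 1.42, and was 0.23 and 0.11 on the 30-day arrays, against -1.17 to -0.23 on the others. PRF1, NKG7 and GZMK, genes of cytotoxic granules, were called with differences of 1.09, 1.32 and 1.12, and each was highest on 90 days replicate 1, at 2.11, 2.11 and 1.70. GZMB, granzyme B, had a difference of 0.16. The part of each cell type in the genes they share was not tested.

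Other blood cell lists gave few calls. Of 9 B and plasma cell genes BLK was called higher (11.1%, against 4.50% over all genes). CD22, a B cell surface receptor, had a difference of 1.75 and overlapped, and MS4A1, which encodes CD20, read 2.24, -3.00 and -1.26 in the macrophage-rich arrays, against -3.87 to 0.14 in the others. Among 15 neutrophil genes, MMP9, a gelatinase that macrophages also make, was called higher (6.7%, against 4.50% over all genes). The list's median difference was 0.09. FCGR3, an Fc receptor of neutrophils, NK cells and macrophages, had a difference of 3.51 and was not called, as 30 days replicate 3 read -1.13 and the others reached -0.66. LTF, lactoferrin of neutrophil granules, had a difference of 0.04, and VNN2, a pantetheinase, 0.94. S100A9, an abundant neutrophil and monocyte protein, read 0.33, -0.57 and -2.50, against -3.74 to -0.03, and overlapped. Of 10 dendritic and mast cell genes, LAMP3 and BATF3 were called higher, with differences of 1.84 and 1.83. PF4, a platelet chemokine, was the only platelet gene called of 9 (11.1%, against 4.50% over all genes). It read 0.97, 2.52 and 3.63 in the macrophage-rich arrays, against -1.53 to -0.01 in the others, with a Cy3 difference of -1.18. PPBP, another platelet chemokine, had a difference of 2.50 and overlapped. No red blood cell gene of 12 was called, and HBB, the beta globin, read -0.20, 0.92 and 0.10, against -4.62 to 1.58.

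Antigen presentation genes were higher on average without clean separation. All 11 MHC class II genes measured had a difference above 0, with a median of 1.46. Only BOLA-DMA was called (9.1%, against 4.50% over all genes). CD74, the invariant chain that guides class II molecules, had log2 ratios of 0.89, -0.09 and 0.82 in the macrophage-rich arrays, against -3.59 to 0.23 in the others. BOLA-DRA, the class II alpha chain, read 1.30, 1.19 and -0.34, against -3.99 to 0.87. BOLA-DQB, a beta chain, had the list's highest difference, 3.71, and also overlapped. For class I presentation 14 of 15 genes had a difference above 0, with a median of 0.93. NLRC5, the transactivator of class I genes, was the gene called (6.7%, against 4.50% over all genes). B2M, the class I light chain, read 0.26, -0.03 and 0.11 in the macrophage-rich arrays, against -3.07 to 0.06 in the others. In CD74, BOLA-DRA and B2M 1 macrophage-rich array fell within the range of the others.

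Of 40 cytokines, chemokines and receptors, 10 were called higher and 0 lower, with a median difference of 0.47. CCL2, the monocyte chemoattractant, was the highest. Its log2 ratio was 2.54, 3.82 and 3.95 in the macrophage-rich arrays, against -1.05 to -0.08 in the others. That gave means of 3.43 ± 0.78 (SD, n = 3) and -0.53 ± 0.39 (SD, n = 6). CXCR4, a receptor that guides leukocyte homing, differed by 3.01, IL1A by 2.44, TNFRSF1A, a receptor of tumour necrosis factor, by 1.84, CCL3 by 1.59, IL6 by 1.38 (a second probe by -0.11) and TNF by 1.37. CCL8, another monocyte chemoattractant, was above the control spots on 3 of 3 macrophage-rich and on 0 of 6 other arrays, and its Cy5 signal was at least 4.50-fold higher in the macrophage-rich ones. Interferon response genes gave 2 calls of 37 (5.4%, near the 4.50% called higher over all genes), UBA7 and IFI6, with a median difference of 0.45. UBD, a ubiquitin-like protein induced by interferon gamma and tumour necrosis factor, had a difference of 4.02 but overlapped, at 1.29, -1.57 and 1.74 against -7.40 to -0.38. Complement genes other than C1q gave 2 calls of 21, CFP and C2 (9.5%, against 4.50% over all genes). CFP, properdin, which stabilises the alternative pathway convertase, read 2.03, 4.02 and 2.76 in the macrophage-rich arrays, against -2.23 to 1.08 in the others. CD55, which restrains complement, and C3, its central component, had differences of 2.00 and 1.58 and overlapped.

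Lysosome genes made up 16 higher calls of 46 measured and 0 lower, with a median difference of 0.82, and all 46 exceeded the control spots on the 3 macrophage-rich arrays. LGMN, the cysteine protease legumain, had log2 ratios of 2.49, 4.11 and 2.30 in the macrophage-rich arrays, against -3.62 to 0.36 in the others. The 7 cathepsins of the list, lysosomal proteases, were CTSC and CTSK with a difference of 3.66 each, CTSH with 2.96, CTSA with 2.26, CTSB with 2.18, CTSZ with 2.15 and CTSD with 1.94, and each was called. CTSL2, a cathepsin outside the list, was called lower, with a difference of -2.31. LIPA, the lipase for cholesteryl esters, differed by 2.11. The brightest genes of the list behaved otherwise, since ATP6AP2, an accessory subunit of the proton pump, differed by 0.74. SCARB2, a lysosomal membrane receptor, was at -1.03, 0.08 and -0.81 in the macrophage-rich arrays, against -0.12 to 1.15 in the others, 2 of which were saturated.

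Of 30 genes of glycolysis, glucose uptake and lactate export, 6 were called higher and 1 lower, with a median difference of 0.75. These calls are 20% and 3.3% of the list, against 4.50% and 2.55% of all genes. The array medians overlapped, at 1.34, 1.26 and 0.53 on the macrophage-rich arrays, against -0.09 to 0.75 on the others, where 60 days replicates 2 and 3 lay above 90 days replicate 1. The median difference was 0.17 within set B and 0.92 within set C. SLC2A3, a high-affinity glucose transporter, read 2.67, 2.33 and 3.75 in the macrophage-rich arrays, against -1.31 to 1.42 in the others. HK2, the first enzyme of glycolysis, differed by 1.69, and LDHA, which makes lactate, by 1.16 with a Cy3 difference of -0.71. PFKM, the muscle form of phosphofructokinase, was the gene called lower, by -1.63, while the platelet form, PFKP, had a difference of 2.03 and overlapped. Among 21 hypoxia response genes 4 were called higher and 1 lower (19.0% and 4.8%, against 4.50% and 2.55% of all genes). EGLN3, an oxygen-sensing hydroxylase, read 1.28, 5.31 and 2.20 in the macrophage-rich arrays, against -2.72 to 0.55 in the others. BNIP3, a mitochondrial protein induced by low oxygen, differed by 2.77. HIF1A, the oxygen-regulated transcription factor, was the lower one, at -1.36, -1.42 and -1.42, against 0.10 to 0.88, and VEGFA had a difference of 0.05. In iron handling, HMOX1, FTH1 and ACO1 were the 3 called of 18, with differences of 1.86, 1.80 and 1.62. FTH1, the ferritin heavy chain, had a Cy3 difference of -1.03, and its spot was saturated in Cy5 on 2 of the 3 macrophage-rich arrays. In lipid handling 1 of 25 genes (4%, against 4.50% over all genes), the fatty acid carrier FABP5, was called higher. It read 2.76, 2.30 and 2.93, against -1.15 to -0.36. OLR1, a scavenger receptor for oxidised lipoprotein, had a difference of 2.38 and overlapped, and PLIN2, a lipid droplet protein, had 0.15. LRP8, which is also on the granulosa list, was called lower (4%, against 2.55% over all genes).

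**Figure D3:**
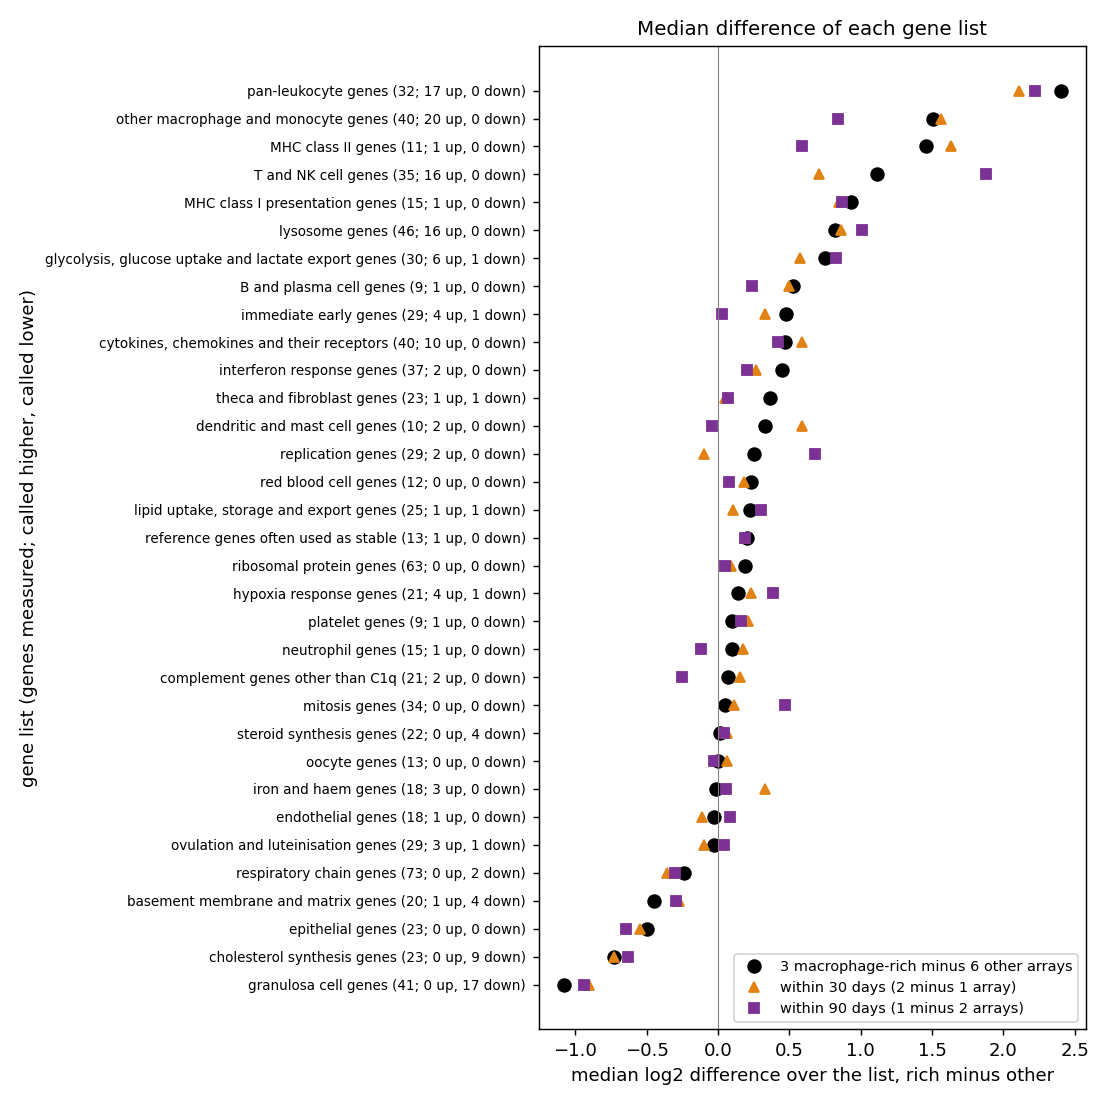
Median log2 difference of each gene list (horizontal axis), macrophage-rich minus other arrays, for all arrays (circles), within 30 days (triangles, 2 minus 1 array) and within 90 days (squares, 1 minus 2 arrays); the labels give the genes measured and the numbers called higher (up) and lower (down). Pan-leukocyte genes lie at the top with 2.40 and granulosa genes at the bottom with -1.08.

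Granulosa genes were the largest block of lower genes among the lists described. Of 41 measured, 17 were called lower and 0 higher, with a median difference of -1.08. The list's median log2 ratio was -0.69, -0.64 and -0.49 on the macrophage-rich arrays, against 0.03 to 0.71 on the others. Of the 41, 30 exceeded the control spots on all 3 macrophage-rich arrays. The same count was 46 of 46 lysosome genes and 38 of 40 macrophage and monocyte genes. It was 12 of 18 endothelial genes and 8 of 13 oocyte genes. The count over all genes was not taken, so nothing is read from it.

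The secreted regulators of follicle-stimulating hormone were among the lowest. INHBB, the beta B subunit of inhibin and activin, had log2 ratios of -4.62, -2.99 and -4.05 in the macrophage-rich arrays, against 0.24 to 3.00 in the others. The means were -3.89 ± 0.83 (SD, n = 3) and 1.98 ± 1.07 (SD, n = 6), a difference of -5.87. FST, follistatin, which binds and blocks activin, read -3.32, -2.73 and -3.02, against 0.90 to 3.47. Anti-Müllerian hormone, AMH, a product of granulosa cells of growing follicles, read -0.69, -0.48 and -0.49, against 0.52 to 3.08, and exceeded the control spots on 1 of the 3 macrophage-rich arrays.

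INHA, the inhibin alpha subunit, and INHBA, the beta A subunit, need their channels taken apart. The INHA spot was saturated in Cy5 on all 6 other arrays, where its signal was 41809 to 44145, and read 2841, 2991 and 4870 on the macrophage-rich arrays. Its Cy5 signal after normalisation was therefore at least 10.7-fold lower in the macrophage-rich arrays. The ratio difference of -5.33 also holds the Cy3 channel, which differed by 1.91 for this gene in the opposite direction. Set B was grouped by its Cy3 signals, which correlated at 0.966 or more over the probes kept. Within it the INHA spot read 39598 and 38454 in Cy3 on the macrophage-rich arrays and 4537 on 60 days replicate 2. Within set C it read 38911 on the macrophage-rich array, against 7982 on 60 days replicate 3 and 35409 on 90 days replicate 3, so there the Cy3 signal did not separate the kinds. INHBA showed the same opposite movement, with a Cy3 difference of 1.73, and its Cy5 spot was saturated on 5 of the 6 other arrays. The cause of these Cy3 differences was not tested. Over all called genes the median Cy3 difference was -0.05 in both directions, against a median Cy5 difference of 1.80 for the higher and -1.76 for the lower genes. SERPINE2, a protease inhibitor secreted by granulosa cells, was saturated in Cy5 on all 6 other arrays. It was at least 13.6-fold lower in Cy5 on the macrophage-rich arrays, with a Cy3 difference of 0.18. Cy3 was saturated too, for SERPINE2 and INHBA on 30 days replicate 2 and 90 days replicate 1. For INHA it was saturated on 30 days replicate 3. The Cy3 differences given for INHA, INHBA and SERPINE2 may thus be too small.

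**Figure D4:**
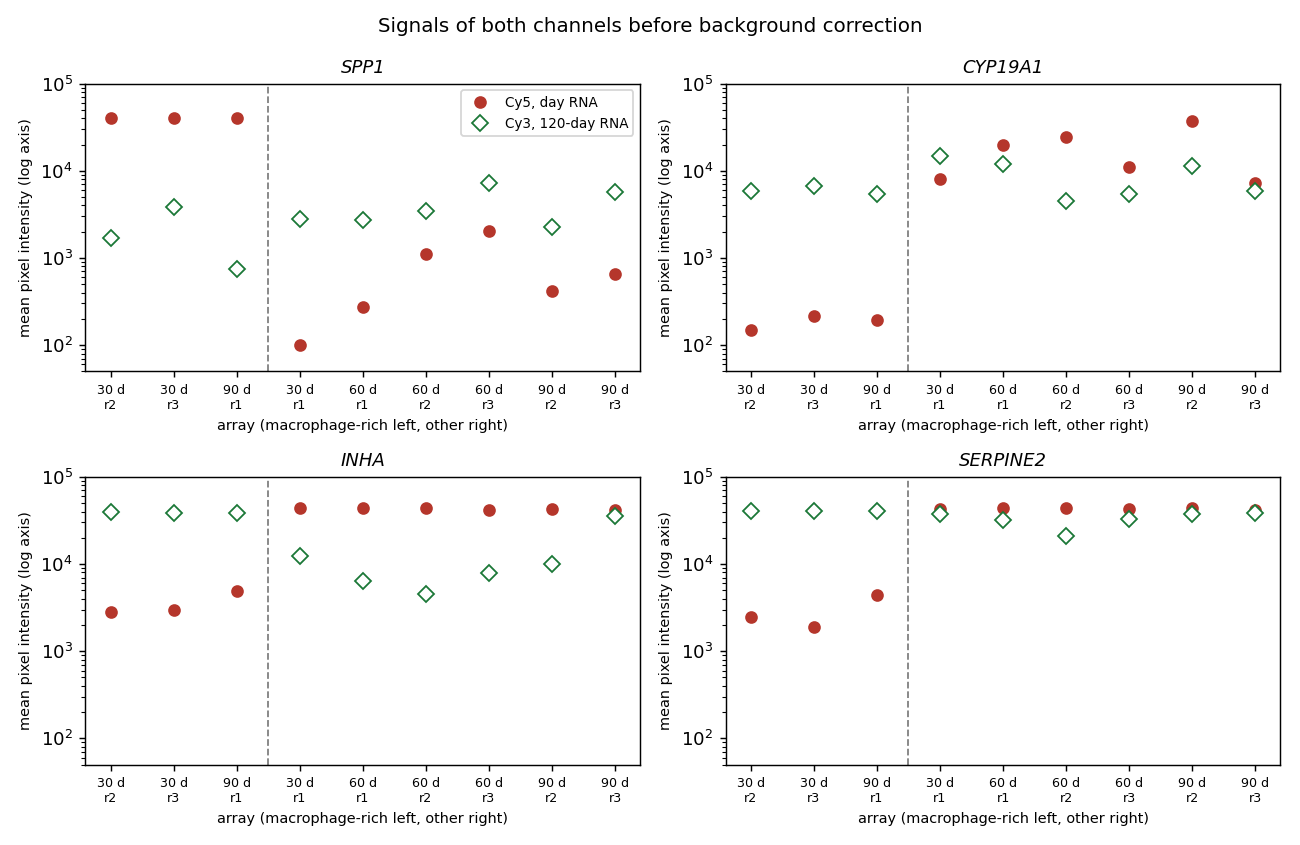
Mean pixel intensity before background correction (vertical log axis) of 4 genes on each array (horizontal axis), with filled circles for Cy5, the day RNA, and open diamonds for Cy3, the 120-day RNA; macrophage-rich arrays stand left of the dashed line and other arrays right of it. CYP19A1 reads 149 to 213 in Cy5 on the macrophage-rich arrays and 7294 to 37026 on the others, while for INHA the Cy3 signal differs as well.

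The receptors and enzymes of oestradiol synthesis gave a mixed picture. CYP19A1, aromatase, had log2 ratios of -4.40, -4.52 and -3.96 in the macrophage-rich arrays, against -0.82 to 2.56 in the others. Its means were -4.29 ± 0.30 (SD, n = 3) and 0.95 ± 1.14 (SD, n = 6). Its 3 probes differed by -5.25 to -0.91. FSHR, the receptor for follicle-stimulating hormone, read -1.67, -0.47 and -1.35, against -0.13 to 1.95, and was called. LHCGR, the receptor for luteinising hormone, read 0.27, 0.10 and 0.02, against 0.07 to 2.78, and overlapped. CYP11A1, which makes pregnenolone from cholesterol, had a difference of -3.47 and was called. HSD3B1, which makes progesterone, had -2.86, with a Cy3 difference of -1.83, and was not called, since the others spanned -1.27 to 3.90. STAR, the cholesterol carrier into mitochondria, had a difference of 1.05, with a Cy3 difference of -0.63, at -0.99, -0.91 and -1.20 in the macrophage-rich arrays, against -3.96 to -0.15 in the others. In all, 4 of 22 steroid synthesis genes were called lower (CYP19A1, CYP11A1, CYB5A and HSD17B1) and 0 higher, and 3 of these, all but CYB5A, also belong to the granulosa list.

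Other granulosa genes lay lower too. LRP8, a lipoprotein receptor, read -4.42, -4.02 and -4.81 in the macrophage-rich arrays, against 0.47 to 2.40 in the others. GJA1, the gap junction protein that couples granulosa cells, differed by -4.20, GATA4, a transcription factor of the gonads, by -2.56, and CDH2, the adhesion protein N-cadherin, by -1.87 with a Cy3 difference of 1.32. FOXL2 and NR5A1, transcription factors of granulosa and steroid-producing cells, had differences of 0.01 and -0.08. The rest of the 12 lowest genes were not on the granulosa list. STRA6, a retinol transporter, differed by -5.58, and TRIB2, a pseudokinase, by -5.30. GRB14, an adaptor that restrains the insulin receptor, differed by -5.12, exceeded the control spots on 1 of the 3 macrophage-rich arrays, and had a second probe that differed by -0.46. SCD5, a fatty acid desaturase, read -4.02, -3.63 and -3.63, against 0.37 to 1.90. OSAP, named ovary-specific acidic protein, differed by -5.61, and EMID1, an extracellular protein, by -5.04. A second probe of STRA6 differed by -0.22, and the least different of 3 TRIB2 probes by -0.04.

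Cholesterol synthesis genes formed the other lower block, with 9 of 23 called lower, 0 higher, and a median difference of -0.73. HMGCS1, which makes the precursor HMG-CoA, had log2 ratios of -2.07, -2.59 and -2.60 in the macrophage-rich arrays, against -0.97 to 1.96 in the others. CYP51A1, the lanosterol demethylase, read -1.62, -2.20 and -2.90, against -0.11 to 0.91. SC4MOL, an older symbol of the methylsterol oxidase MSMO1, differed by -2.91, SQLE, squalene epoxidase, by -2.23, and FDPS, which makes farnesyl diphosphate, by -2.13. Probes of 1 gene did not always move together: the 4 probes of HMGCS1 differed by -3.03 to 0.07 and the 4 of SC4MOL by -2.91 to 0.18. SREBF2, the transcription factor that drives this pathway, had a difference of -0.23.

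Basement membrane and matrix genes gave 4 lower calls and 1 higher of 20, with a median of -0.45. That is 20% lower and 5% higher, against 2.55% and 4.50% of all genes. LAMA1, a laminin chain, read -3.68, -3.33 and -3.42 in the macrophage-rich arrays, against -0.68 to 2.58 in the others. COL4A1, a chain of type IV collagen, had a difference of -2.33 and overlapped, at -1.38, -1.62 and -1.49 against -1.90 to 2.78. TNC, tenascin C, was the higher one, above the control spots on 0 of the 6 other arrays, with a Cy5 signal at least 2.74-fold higher in the macrophage-rich arrays. Ovulation and luteinisation genes gave 3 higher calls, PLAUR, PLAU and CD44, and 1 lower, PGR, of 29. These are 10.3% and 3.4% of the list, against 4.50% and 2.55% of all genes. PLAUR and PLAU, the urokinase receptor and urokinase, are also made by leukocytes. PGR, the progesterone receptor, read -1.91, -1.43 and -1.76, against 0.27 to 1.27, and exceeded the control spots on 1 of the 3 macrophage-rich arrays.

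Markers of the tissues around the follicle were less clear. Of 23 theca and fibroblast genes 1 was called higher (COL1A1) and 1 lower (PTCH1), 4.3% each, against 4.50% and 2.55% of all genes. The list's median difference was 0.36. That median was 1.56 within set B and -0.00 within set C, 0.05 within 30 days and 0.07 within 90 days. COL1A2, a type I collagen chain, read 2.80, 1.99 and 2.95 in the macrophage-rich arrays, against -2.90 to 2.07 in the others. FN1, fibronectin, read 2.62, 2.59 and 1.60, against -3.65 to 3.78. In both genes the high value among the others was on 90 days replicate 2, the array just outside the limit. Of 18 endothelial genes ENG was called higher (5.6%, against 4.50% over all genes), with a difference of 1.44, and the list median was -0.03. LYVE1, a hyaluronan receptor of lymphatic vessels and of some macrophages, read 2.62, 1.97 and 3.45, against -0.75 to 2.06, and overlapped. None of 13 oocyte genes was called.

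None of 63 ribosomal protein genes and none of 34 mitosis genes was called, at median differences of 0.19 and 0.05. Of 29 replication genes UHRF1 and MCM4 were called higher (6.9%, against 4.50% over all genes). Of 73 respiratory chain genes, NDUFS4 and NDUFA3, both subunits of complex I, were called lower, with differences of -2.33 and -1.23. That is 2.74% of the list, near the 2.55% called lower over all genes. Of 29 immediate early genes 4 were called higher and 1 lower, or 13.8% and 3.4%, against 4.50% and 2.55% of all genes. Among the higher were NFKBIA, the inhibitor of NF-kappa B, by 1.82, and MYC, by 1.83, and the list's median difference was 0.48. GADD45B, a stress-induced protein, was called lower, at 0.52, -1.16 and 0.02 in the macrophage-rich arrays, against 0.62 to 3.82 in the others, with a Cy3 difference of -1.18. Among 13 genes often used as stable references, HPRT1 was called higher by 1.75 (7.7%, against 4.50% over all genes). ACTB had a difference of 1.69 with a Cy3 difference of -1.37 and overlapped, while RPLP0 and EEF1A1 had differences of 0.15 and 0.20.

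The split was uneven over days, so the same difference was taken inside the 2 days that held both kinds of array. These values reuse the arrays that made the calls, and their direction is set by the choice. The only other array of 30 days, replicate 1, had the lowest Cy5 detection, at 29.8% of probes, and 53.3% in Cy3. Within 30 days, replicates 2 and 3 minus replicate 1, the median difference was 1.89 for the higher genes and -1.51 for the lower. Within 90 days, replicate 1 minus replicates 2 and 3, it was 1.72 and -1.60. T and NK cell genes had a median of 0.71 within 30 days and 1.88 within 90 days, and MHC class II genes had 1.63 and 0.59. Pan-leukocyte genes had 2.11 and 2.22, granulosa genes -0.90 and -0.94, and cholesterol synthesis genes -0.73 and -0.63. No test was made of the day differences. Within the 120-day sets that held both kinds, the higher genes had medians of 1.87 in set B and 1.82 in set C, and the lower genes -1.93 and -1.62.

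The labels' own groups, the days, were compared with limma. The F test for any difference among 30, 60 and 90 days called 0 of 38823 probes at an adjusted p of 0.05 (0.00% of the genes), with 3804 probes at an unadjusted p below that value and a smallest adjusted p of 0.201. With 0 probes called, none of the 1007 genes called between the kinds of array could be among them. This overlap says nothing about how the split relates to day. With a term for the macrophage-rich arrays beside the days the test called 0 probes, with a smallest adjusted p of 0.0780 by limma. With the 3 sets of similar Cy3 signals as a block, limma called 1 probe of 38823, that of UBD, at an adjusted p of 0.0283. This fit was added after the data had been seen. For 30, 60 and 90 days UBD read -3.03, -7.40 and -2.19 in set A, 1.29, -2.89 and 1.74 in set B, and -1.57, -5.29 and -0.38 in set C. It was lowest at 60 days in each set, and it was not called between the kinds of array.

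The 3 macrophage-rich arrays were not alike in every gene. MMP9 read 1.34, 2.60 and 6.66, so 90 days replicate 1 stood 4 or more log2 units above the 30-day arrays, against -0.78 to -0.02 in the others. GRN, the lysosomal protein progranulin, read 0.45, 0.08 and 3.75, and LMNA, a nuclear lamin, 0.11, -0.03 and 3.17, while the other 6 arrays read -0.31 to 0.14 for GRN and -0.15 to 0.24 for LMNA. MGC126945, an uncharacterised symbol of the array, and APOA1, the main protein of high-density lipoprotein, were also higher on the 90-day array than on both 30-day arrays. In the opposite direction FABP4, a fatty acid carrier of macrophages and fat cells, read 3.57, 0.59 and -2.54, against -2.32 to 0.12 in the others. CKB, brain creatine kinase, read 0.31, 4.22 and -1.52, against -3.19 to 2.00. INTS4, ABP1 and A2M were lower on the 90-day array as well, and INTS4, a subunit of the Integrator complex, read 0.26, 0.05 and -4.33 with 1 of its 3 probes.

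Between the 30-day arrays, ALOX15, a lipoxygenase of eosinophils and macrophages, read 4.24 on replicate 2 and -2.57 on replicate 3, with -0.07 on 90 days replicate 1 and -3.86 to 0.70 on the others. IL8RB, an older symbol for a neutrophil receptor of interleukin 8, read 3.54, -2.92 and -0.69, and DGAT2, which makes triglyceride, 2.86, -3.66 and -0.74. MGP and LOC404103 were higher on replicate 2 as well. The 5 genes with the lowest values on replicate 2 relative to replicate 3 were MSMB, PIGR, CLCA1, LAP and SPINK1. PIGR, which carries antibody across epithelia, read -4.94, 0.88 and -3.81 in the macrophage-rich arrays, and -5.52 on 60 days replicate 2. Those 3 low arrays are the whole of set B, and PIGR read -0.41 to 1.75 on the 6 arrays of sets A and C. Its Cy3 signal differed by 2.94. MSMB followed the same arrays, with -4.94, -3.03 and -4.75 in set B and -0.48 to 1.76 elsewhere. Of 23 epithelial genes none was called. Their median log2 ratio was -1.29, -0.27 and -1.19 in the macrophage-rich arrays, against -1.80 on 60 days replicate 2 and -0.41 to -0.04 on the rest, and the median difference within set B was 0.19.

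**Figure D5:**
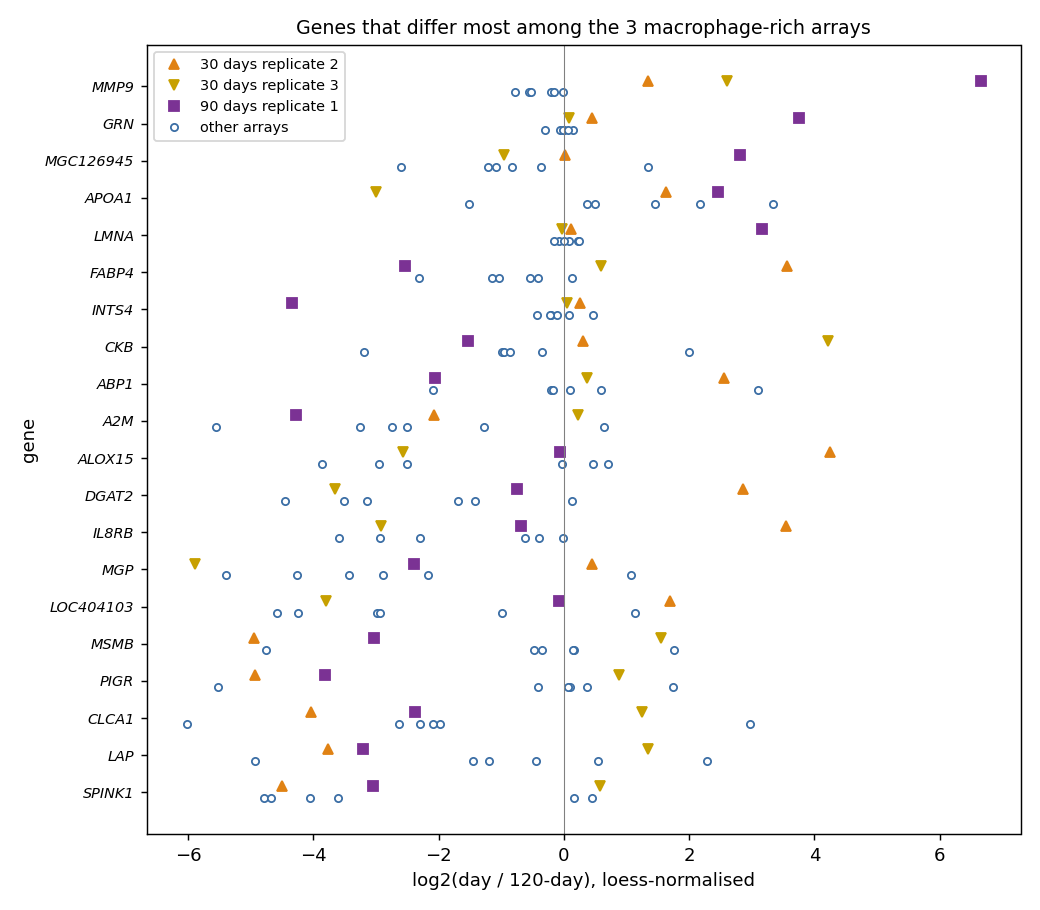
Log2 ratio of day RNA to 120-day RNA (horizontal axis) of the genes that differ most among the 3 macrophage-rich arrays, which have a symbol each, with open circles for the 6 other arrays. MMP9 reaches 6.66 on 90 days replicate 1, and PIGR lies at -4.94 and -3.81 on the 2 macrophage-rich arrays of set B and at 0.88 on 30 days replicate 3.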

How the data were processed

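Each deposited array file gives, per the file headers, mean and median pixel intensity and local background per spot in both channels. For the mean intensities, limma 3.58.1 in R 4.3.3 did normexp background correction with an offset of 50, then loess within each array, with control spots at weight 0. Of 43794 probes, 38823 (88.6%) exceeded the 153 negative control spots by 2 SD in either channel on at least 3 arrays. Of all probes, 21790 had 1 gene symbol and 22004 none; a gene's brightest probe stood for it, so 14281 genes were measured, under the array's symbols, some of them old. Lists were matched by symbol or through the synonyms of a RefSeq gene table (assembly ARS-UCD2.0), leaving out synonyms shared by several genes.

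The authors' deposited table of log2 values was set against the arrays. Of its 9 columns 1 fitted the array of its own name best, at r = 0.068, while the 90 days replicate 3 column fitted 90 days replicate 1 at r = 0.915. Some columns fitted an array of another day. The 30 days replicate 1 column fitted 60 days replicate 1 at r = 0.930, and 30 days replicate 3 fitted 60 days replicate 2 at 0.932. The 60 days replicate 2 column fitted 90 days replicate 3 at 0.893. The table's names thus conflict with the days used here. The value table's scale, centring and direction are unknown, and its column medians lie between -0.02 and 0.03. It was not used further. The arrays were taken as named, so the day of each rests on those names.

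Levels per channel were taken after loess and Aquantile normalisation between arrays and are open to dye bias, as no dyes were exchanged. Where a Cy5 spot was saturated on every array of one kind (median pixel at 65535), or not above the control spots on every array of the other, a bound is given ("at least"), the dim side set to the lowest signal above controls where that was higher. The F test among days used lmFit and eBayes with 1 coefficient per day and Benjamini-Hochberg adjustment over all probes (6 residual and 1.35 prior degrees of freedom). The call rule and the F test were run on simulated arrays with known differences and independent noise. The arrays here are alike within sets, so that run checks the calculations only. The number of arrays limits the precision.

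The arrays, the 12 markers and the gene lists were chosen with earlier results of these data known. Genes were named by rule: the 12 highest and 12 lowest differences among called genes detected in Cy5 (on all 3 macrophage-rich arrays, or on at least 5 of the others), the 2 brightest and the 2 most different members of each list, 19 granulosa and blood cell genes always, and the 5 most different each way among the macrophage-rich arrays. Not every gene this rule gives is described, and PECAM1 has no value here. Some further members of the lists were named after their values were seen. Alternatives tried were median centring, no background correction, Aquantile, no probe filter, median pixels, the mean of a gene's probes, day, replicate number or 120-day set as a block, no minimum difference, other macrophage genes as the markers, and leaving out each array. The Cy5 signal alone, and the 120-day set as a block in the F test, were added after the data had been seen.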

Additional observations from a re-analysis of the deposited data

Results flagged for a closer look

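Some values took opposite signs within the 2 days that held both kinds of array: every macrophage-rich array of a day lay on one side of the others of that day, and on the other side at the other day. These differences between days were not tested, and each day has 3 arrays. The only other array of 30 days, replicate 1, had the lowest Cy5 detection. Values are macrophage-rich minus other arrays on the log2 scale.

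S100A9, the neutrophil and monocyte protein, differed by 2.16 within 30 days and by -2.46 within 90 days. FABP4, the fatty acid carrier, differed by 2.62 and -2.40, and CKB, brain creatine kinase, by 3.26 and -2.09. C1QB, a complement chain and 1 of the 12 marker genes, differed by 5.53 within 30 days and by -0.75 within 90 days. ALOX15, the lipoxygenase, differed by 3.79 and -0.41, although its 30-day arrays read 4.24 and -2.57. INTS4 differed by 0.37 within 30 days and by -4.00 within 90 days, through 1 spot at -4.33 on 90 days replicate 1.

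The following small values met the same criterion. The array medians of the neutrophil list differed by 0.20 within 30 days and -0.081 within 90 days, MOS, a kinase of the oocyte, by -0.35 and 0.18, and ZP4, an oocyte coat protein, by 0.08 and -0.14.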

How the results depend on the processing

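The 3 arrays had the 3 highest marker medians under each of the 7 alternatives. Their number above 1 was 4 with median centring and with median pixels, where 90 days replicate 2 read 1.04 and 1.05, and 1 with the macrophage genes outside the 12, where the 3 arrays read 0.76 and above and the highest other 0.05. Without a minimum difference, 1141 genes were higher and 654 lower. With median pixels the list medians were 1.93 (other macrophage genes), 1.61 (T and NK cell genes), 1.03 (lysosome genes) and -1.51 (granulosa genes). The granulosa median was -0.81 with day as a block and -0.82 with the 120-day set as a block, and that of glycolysis 0.39 for the Cy5 signal alone. Leaving out each array in turn gave 637 to 842 higher and 366 to 549 lower genes, the 549 without 30 days replicate 3. The list medians then ran from 1.29 to 1.90 (other macrophage), 1.92 to 2.71 (pan-leukocyte), 0.73 to 1.52 (T and NK cell), 0.65 to 0.88 (lysosome), 0.56 to 0.81 (glycolysis), -1.37 to -0.98 (granulosa) and -0.80 to -0.62 (cholesterol synthesis). The F test among days then called 0 to 1 probes (1 without 30 days replicate 1, that of PHACTR2). It called 1 with median centring (LOC784385) and 1 with the 120-day set as a block (UBD). Without the macrophage-rich arrays it has 1 array at 30 days and 3 residual degrees of freedom, which says nothing about stability. The causes of these shifts were not tested. With the replicate block, 769 genes were higher and 396 lower and the F test called 0. Deviations from the day mean of arrays with the same number correlated at 0.34 to 0.51 between 30 and 60 days. They correlated at -0.69 to -0.29 between 30 and 90 days, and at -0.51 to 0.19 between 60 and 90 days. The numbers thus do not pair the arrays of all 3 days. No called difference changed sign among the named genes recomputed one by one. Most columns of the authors' value table fitted an array of another name best, so that alternative was not run. Dim spots limit folds, and 3 macrophage-rich arrays of 2 days limit every value.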
